A study of Mus musculus with 12 samples.

Results

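Of the 54532 mouse genes in the deposited count table, 10 iron and heme genes were chosen by name and read in all 12 libraries. They were Hamp and Hamp2 (hepcidins), Tfrc and Tfr2 (transferrin receptors), Trf (transferrin), Fth1 and Ftl1 (ferritin chains), Slc40a1 (ferroportin), Alas1 (the first enzyme of heme synthesis) and Hmox1 (the first enzyme of heme breakdown). Each name matched exactly 1 row, and all 10 genes passed the filter on low counts in every comparison. The libraries were bulk RNA-seq of liver and subcutaneous fat from male mice, which received an AAV8 vector at 10 weeks of age, were switched to a low-fat diet, and were sampled 16 weeks later. Null mice carried the empty vector, and hHKDC1 OE mice carried human HKDC1, a hexokinase, under control of the hepatocyte promoter of thyroxine-binding globulin. Every mouse in the comparison, controls included, thus had received virus and the low-fat diet. Each of the 4 combinations of tissue and vector had 3 libraries. The sample titles and the treatment tag name overexpression, although the free-text description calls replicates 2 and 3 of hHKDC1 OE knockouts in both tissues, and the titles were followed.

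Total counts ran from 15496019 to 19954971 per library. Mouse Hkdc1 had 0 to 8 counts in any library, and the human transgene was not analysed here, so these counts do not check the vector labels. Hepatocyte markers were high in liver and adipocyte markers in fat. The summed level of 10 hepatocyte markers was 124473 ± 3366 CPM (TMM-normalized counts relative to library size, SD, n = 3) in null liver and 9356 ± 3206 in null fat, and that of 10 adipocyte markers was 158 ± 10.6 in null liver and 30241 ± 4872 in null fat. Of the hepatocyte sum in null fat, Pck1 made 3559 ± 862 CPM, against 4611 ± 474 in null liver. In fat that sum therefore does not measure hepatocyte mRNA alone. The fat libraries also held skeletal muscle mRNA in unequal amounts, since 8 muscle markers summed to 18710, 22652 and 530 CPM in null fat and to 15529, 1051 and 2523 CPM in hHKDC1 OE fat, against 16.4 to 33.1 CPM in the livers. The part of muscle in the fat values was not tested. Nothing in the labels ties a replicate number to a mouse, so the p-values measure the spread between these libraries only. In bulk tissue, fewer cells of a type and less RNA per cell cannot be told apart.

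Hepcidin is a liver hormone that binds ferroportin, the cell's iron exporter, and causes its degradation, so that iron stays in macrophages, hepatocytes and the gut lining. Its transcription in hepatocytes is driven by the BMP and SMAD pathway, which reads iron stores, and by interleukin 6 through STAT3. Inside cells, iron regulatory proteins bind a hairpin in mRNA, the iron-responsive element, which blocks translation when it lies in the 5′ UTR and protects the mRNA when it lies in the 3′ UTR. Heme is made in mitochondria from glycine and succinyl-CoA and is broken down by heme oxygenase into iron, biliverdin and carbon monoxide.

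The promoters of both hepcidin genes are shown because the BMP and interleukin 6 arms act there. Each is the RefSeq window from 250 bases before to 50 bases after the start, on the minus strand of GRCm38.p6, at chr7:30943980-30944279 for Hamp and chr7:30924132-30924431 for Hamp2. Capitals mark matches to GGCGCC, the core of the BMP-responsive element, and to TTCNNNGAA, the STAT motif. Both motifs read the same on either strand.
Hamp: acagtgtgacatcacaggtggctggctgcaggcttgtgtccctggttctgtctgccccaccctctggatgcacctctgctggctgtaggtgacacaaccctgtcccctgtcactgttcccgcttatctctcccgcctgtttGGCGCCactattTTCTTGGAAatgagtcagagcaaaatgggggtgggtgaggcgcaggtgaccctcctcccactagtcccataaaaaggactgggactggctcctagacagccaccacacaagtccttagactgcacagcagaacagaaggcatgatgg
Hamp2: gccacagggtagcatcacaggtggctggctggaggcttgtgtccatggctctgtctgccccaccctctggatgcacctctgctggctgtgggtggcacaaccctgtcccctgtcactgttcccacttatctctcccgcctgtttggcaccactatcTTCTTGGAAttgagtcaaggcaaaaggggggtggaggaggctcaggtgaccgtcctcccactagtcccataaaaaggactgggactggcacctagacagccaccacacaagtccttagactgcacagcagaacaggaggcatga
The windows were identical at 276 of 297 aligned bases (92.9%). The Hamp window held both motifs, GGCGCC starting at -109 and TTCTTGGAA at -97 from the start, and the Hamp2 window held TTCTTGGAA at -94 but no GGCGCC. Among 32851 RefSeq promoter windows of the same length, 11.9% held GGCGCC and 8.30% held TTCNNNGAA. The coding sequences of Hamp and Hamp2 were identical at 233 of 249 aligned bases (93.6%). Whether reads were assigned to the wrong copy or dropped was not tested, so the split between the copies was not checked.

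The iron-responsive elements are shown because they mark which of these mRNAs cells regulate by iron after transcription. A search of GENCODE M21 transcripts on GRCm38 for the loop CAGTGN flanked by paired stems and an unpaired C found matches in 4 of the 10 genes. Capitals mark the loop.
Fth1, 5′ UTR, chr19:9982733-9982759, plus strand: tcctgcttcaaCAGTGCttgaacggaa
Ftl1, 5′ UTR, chr7:45459780-45459806, minus strand: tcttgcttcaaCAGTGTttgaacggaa
Slc40a1, 5′ UTR, chr1:45925466-45925492, minus strand: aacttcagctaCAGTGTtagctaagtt
Tfrc, 3′ UTR, chr16:32631220-32631246, plus strand: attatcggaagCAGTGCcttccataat
Tfrc, 3′ UTR, chr16:32631599-32631625, plus strand: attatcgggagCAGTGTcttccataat
Tfrc, 3′ UTR, chr16:32631664-32631690, plus strand: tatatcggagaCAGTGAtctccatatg
Tfrc, 3′ UTR, chr16:32631711-32631737, plus strand: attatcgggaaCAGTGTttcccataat
The single matches lay in the 5′ UTR of the storage and export genes and the 4 of Tfrc in its 3′ UTR. Across protein-coding genes, 294 of 21901 (1.34%) held a match anywhere in a transcript, coding sequence included.

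Per unit of transcript length, hepcidin was the highest of the 10 mRNAs in null liver and the ferritin heavy chain the highest in null fat. In deposited FPKM (mean ± SD, n = 3), Hamp stood at 2939 ± 811 in null liver, Fth1 at 2212 ± 147 and Ftl1 at 1606 ± 184. Hamp and Fth1 lay within their spreads of each other. Below them came Trf at 695 ± 34.8, Alas1 at 168 ± 76.4, Tfr2 at 143 ± 5.84 and Hamp2 at 85.6 ± 46.2 FPKM, and the ranges of Alas1 and Tfr2 met. Slc40a1, the exporter, stood at 17.8 ± 2.81, Hmox1 at 8.03 ± 3.22 and Tfrc, the receptor that takes up transferrin-bound iron, at 3.71 ± 0.219 FPKM.

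In null fat the order was different. Fth1 stood at 1389 ± 42.9 FPKM and Ftl1 at 273 ± 65.3. Trf was at 58.3 ± 7.49, Alas1 at 43.7 ± 5.39 and Hmox1 at 13.6 ± 3.27 FPKM. Hamp averaged 61.6 ± 50.6 FPKM, but it was at 33.6, 31.3 and 120 in null fat 1 to 3, below Trf and Alas1 in replicates 1 and 2 and above both in replicate 3. The lowest were Tfr2 at 5.28 ± 2.36, Tfrc at 3.39 ± 0.980, Hamp2 at 2.18 ± 1.55 and Slc40a1 at 1.04 ± 0.109. In FPKM, Tfrc was thus at about the same level in both tissues while its hepatocyte relative Tfr2, a sensor of transferrin saturation, was not.

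Fat was set against liver in the null mice to give each gene's level without the transgene. Most of the genes, 8 of 10, were lower in fat. Relative to liver, edgeR's quasi-likelihood test (Benjamini-Hochberg adjusted) gave log2 fold changes of -5.64 ± 0.62 (SE) for Hamp (adjusted p = 0.000118), -5.34 ± 0.62 for Hamp2 (0.000152), -4.82 ± 0.38 for Tfr2 (2.2e-05) and -4.15 ± 0.17 for Slc40a1 (2.1e-06). The value was -3.63 ± 0.21 for Trf (adjusted p = 6.51e-06, edgeR), -2.61 ± 0.25 for Ftl1 (5.13e-05) and -2.01 ± 0.33 for Alas1 (0.00100). These 7 genes kept this direction and call under every alternative in which they were tested, which for Hamp2 leaves out the filter of 10 counts in every library. The size varied, and that of Hamp ran from -6.52 to -5.26 when 1 library was left out. Fth1 was lower by 0.72 ± 0.19 on the log2 scale with TMM (adjusted p = 0.0106, edgeR), but with library size alone its log2 difference was 0.17 and not past the threshold. Tfrc was at -0.18 ± 0.21 with TMM (adjusted p = 0.476) and at 0.70 with library size alone (adjusted p = 0.0139, edgeR), so its direction depended on the scaling. Hmox1 was at 0.70 ± 0.30 with an adjusted p of 0.0767 (edgeR), and it was called under 8 of 16 alternatives.

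The 8 of 10 members called lower stand beside 30.5% of all 15259 tested genes called lower and 64.3% called in either direction. The same 8 were those at an unadjusted p under 0.05, beside 67.8% of all genes. All 8 had groups that did not overlap, each with fat lower, beside 71.6% of all genes apart, 37.8% being apart and higher in fat and 33.8% apart and lower. Library size alone moved the median log2 difference of all genes from 0.09 to 0.98, and the split of called genes from 5163 higher and 4647 lower to 9012 higher and 2286 lower.

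**Figure D1:**
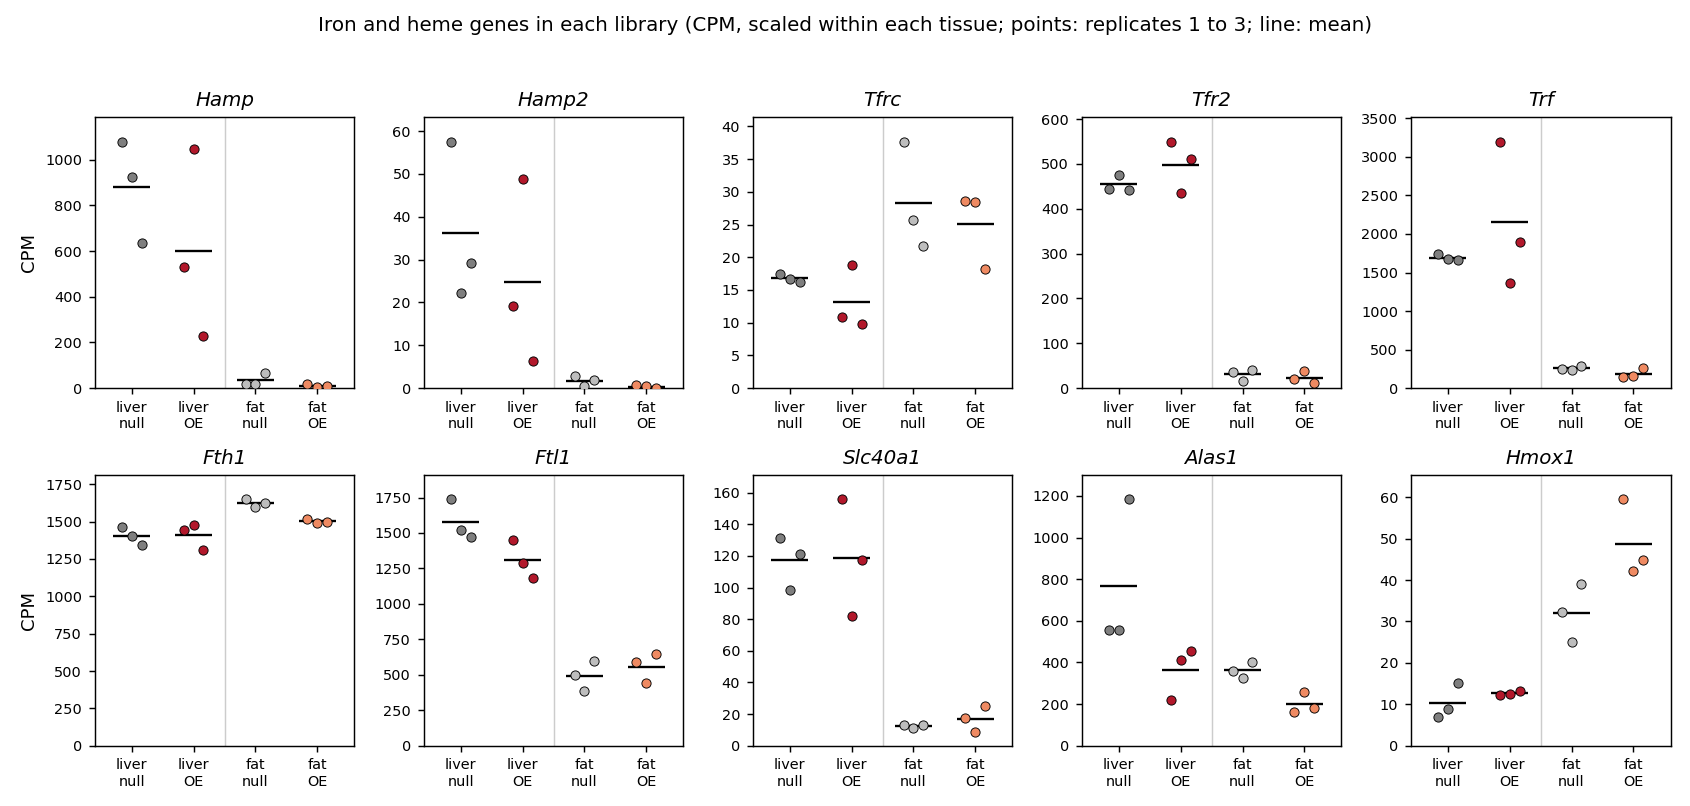
CPM of the 10 genes in each of the 12 libraries (y axes from 0, points are replicates 1 to 3 from left to right, line is the mean of 3). CPM were scaled within each tissue, so heights are compared within liver or within fat, where the 3 hHKDC1 OE livers all lie below the 3 null livers for Alas1 and Ftl1 and the 3 hHKDC1 OE fats lie below null for Alas1 and Fth1 and above it for Hmox1, with the fitted difference of Fth1 turning sign with library size alone.

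The liver carries the transgene, and hHKDC1 OE liver was compared with null liver. None of the 10 genes passed the test there. By edgeR 0 of 10 were called, beside 0% of all 13351 genes. Only Alas1, 1 of 10, had an unadjusted p under 0.05, beside 6.94% of all genes, and DESeq2 called 0 of the 10, beside 0.674% of all genes.

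Hepcidin mRNA varied widely between hHKDC1 OE livers. Hamp stood at 1078, 926 and 636 CPM in null livers 1 to 3 and at 530, 1045 and 230 CPM in hHKDC1 OE livers 1 to 3. Replicate 2 of hHKDC1 OE lay in the null range and replicates 1 and 3 below it, so the groups overlapped. The log2 fold change was -0.55 ± 0.45 (SE, adjusted p = 0.865, edgeR), and it ran from -1.21 without hHKDC1 OE replicate 2 (adjusted p = 0.175, edgeR) to -0.16 without replicate 3 (adjusted p = 0.998, edgeR). Hamp2 was at 57.5, 22.2 and 29.1 CPM in null and at 19.1, 48.7 and 6.35 CPM in hHKDC1 OE, again with replicate 2 the highest of its group and replicate 3 the lowest. Its log2 fold change was -0.55 ± 0.60 (adjusted p = 0.901, edgeR), and leaving out hHKDC1 OE replicate 2 gave -1.52, whereas leaving out null replicate 1 gave -0.054. Counts of Hamp exceeded those of Hamp2 by 18.7 to 41.7 times in the 6 livers.

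The transferrin receptor followed the same order over the hHKDC1 OE livers. Tfrc was at 17.4, 16.7 and 16.2 CPM in null liver and at 10.9, 18.9 and 9.87 CPM in hHKDC1 OE liver. The null values were nearly equal, replicates 1 and 3 of hHKDC1 OE lay below all of them and replicate 2 lay above, and the log2 fold change was -0.35 ± 0.24 (adjusted p = 0.835, edgeR). It was -0.70 without hHKDC1 OE replicate 2 (adjusted p = 0.137, edgeR) and -0.17 without replicate 3 (adjusted p = 0.998, edgeR). Tfr2 ran from 443 to 475 CPM in null and from 436 to 549 CPM in hHKDC1 OE, a log2 fold change of 0.13 ± 0.15 (adjusted p = 0.905, edgeR).

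Transferrin, which carries iron in plasma, was spread the other way. Trf was at 1740, 1676 and 1657 CPM in null liver and at 3196, 1364 and 1897 CPM in hHKDC1 OE liver. Replicates 1 and 3 of hHKDC1 OE were above every null library and replicate 2 below every one. The log2 fold change was 0.35 ± 0.28 (adjusted p = 0.865, edgeR), and it ran from -0.053 without hHKDC1 OE replicate 1 to 0.59 without replicate 2.

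Among the storage and export genes, the ferritin light chain was the one whose groups did not overlap. Ftl1 was at 1737, 1518 and 1472 CPM in null liver and at 1451, 1291 and 1185 CPM in hHKDC1 OE liver. The highest hHKDC1 OE value was just under the lowest null value, and the log2 fold change was -0.27 ± 0.17 (adjusted p = 0.820, edgeR). Fth1 ran from 1342 to 1463 CPM in null and from 1311 to 1478 CPM in hHKDC1 OE, with a log2 fold change of 0.01 ± 0.16. Slc40a1 ran from 98.7 to 131 CPM in null and from 81.9 to 156 CPM in hHKDC1 OE, with a log2 fold change of 0.02 ± 0.23. For both genes the sign of so small a difference turned under several alternatives. The Fth1 to Ftl1 ratio of counts was 0.842, 0.926 and 0.912 in null liver and 0.993, 1.14 and 1.11 in hHKDC1 OE liver.

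The rate-limiting enzyme of hepatic heme synthesis was lower in each hHKDC1 OE liver, without passing the adjusted test. Alas1 was at 554, 558 and 1183 CPM in null liver and at 220, 410 and 456 CPM in hHKDC1 OE liver. All 3 hHKDC1 OE libraries were below all 3 null libraries, and null replicate 3 stood far above the other two. The log2 fold change was -1.08 ± 0.35 (unadjusted p = 0.0130, adjusted p = 0.587, edgeR), and it ran from -0.62 without null replicate 3 (adjusted p = 0.674, edgeR) to -1.28 without hHKDC1 OE replicate 3 (adjusted p = 0.993, edgeR). With no filter on low counts Alas1 was called, at -1.07 (adjusted p = 4.03e-05, edgeR), where 327 of all genes were. With Ftl1 this made 2 of 10 members with groups apart, both lower, beside 12.5% of all genes apart and 6.18% apart and lower. Summed hepatocyte markers were also apart and lower, at 122352 to 128354 CPM in null liver and 73696 to 99129 CPM in hHKDC1 OE liver. Of these 10 markers 8 were below 0, 3 had an unadjusted p under 0.05, 0 were called and none was at 0, and Alb, the defining one, was at 71234 ± 3393 CPM in null and 46249 ± 7093 CPM in hHKDC1 OE (SD, n = 3). Their part in the Alas1 and Ftl1 values was not tested.

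Heme oxygenase 1 was low in all livers. Hmox1 was at 6.86, 8.99 and 15.3 CPM in null and at 12.4, 12.6 and 13.3 CPM in hHKDC1 OE, and null replicate 3 was above every other liver. The log2 fold change was 0.30 ± 0.27 (adjusted p = 0.881, edgeR), and it was 0.69 without null replicate 3 (adjusted p = 0.571, edgeR) and 0.073 without null replicate 1 (adjusted p = 0.983, edgeR). In the same null library, Nr1d1 (the heme-binding clock repressor REV-ERBα) was at 14.1 CPM against 43.5 and 39.0 in the other null livers, and Socs3, a STAT3 target, at 16.3 CPM against 1.67 and 3.26. Their part in the Alas1 and Hmox1 values was not tested.

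**Figure D2:**
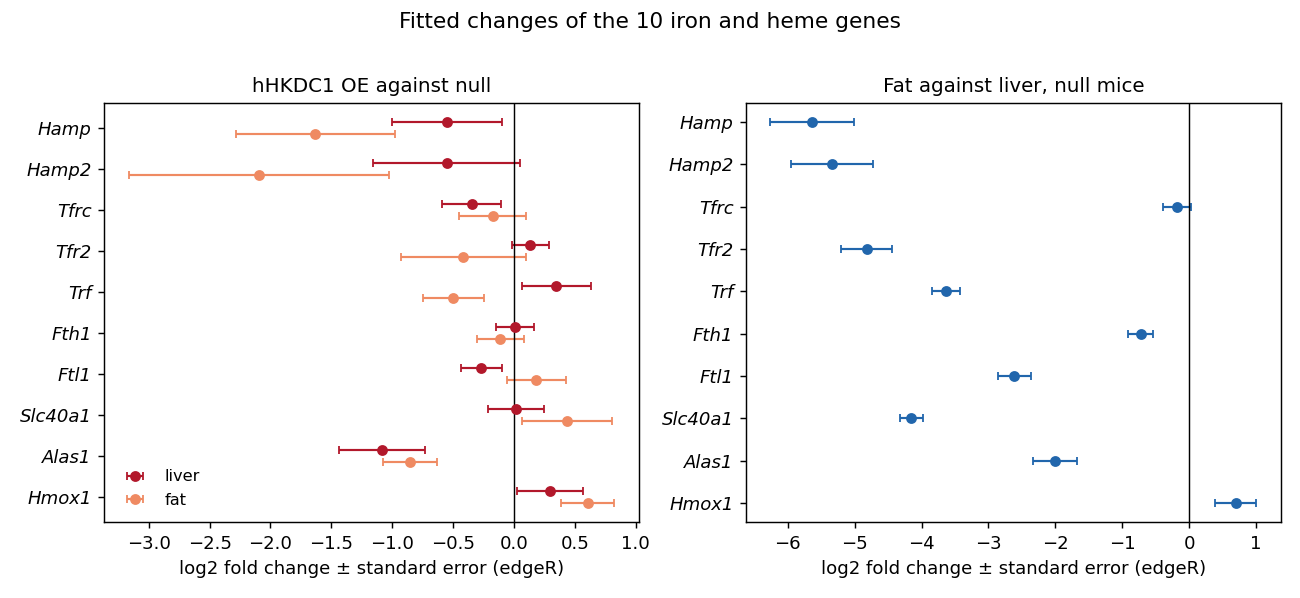
Log2 fold changes of the 10 genes from edgeR, with bars of 1 standard error: hHKDC1 OE against null in liver and in fat (left) and fat against liver in null mice (right). Alas1 lies below 0 in both tissues at -1.08 and -0.85, and no gene in the left panel passed the adjusted test, whereas 8 genes did in the right panel, of which Fth1 turned sign with library size alone.

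The rest of the iron and heme pathways was read from 9 lists, which hold 127 genes that are not among the 10. Of 117 tested in liver, 0 were called by edgeR, 14 had an unadjusted p under 0.05, beside 6.94% of all genes, and DESeq2 called 4, beside 0.674% of all genes, which were Hpx, Hp, Lcn2 and Id1. Their median log2 fold change was -0.01, beside 0.01 for all genes.

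The plasma heme scavenger stood highest in the same hHKDC1 OE livers as Trf. Hpx, which encodes hemopexin, was at 3094, 3087 and 3473 CPM in null and at 14047, 3589 and 9089 CPM in hHKDC1 OE. Its log2 fold change was 1.47 ± 0.41 (adjusted p = 0.512, edgeR), and all 3 hHKDC1 OE livers were above null. Lcn2, a binder of bacterial iron carriers and an acute-phase gene, was at 5.07, 4.37 and 21.2 CPM in null and at 700, 48.6 and 358 CPM in hHKDC1 OE. Its log2 fold change was 5.17 ± 0.97 (adjusted p = 0.345, edgeR), and with the replicate block it was 4.83 and called (adjusted p = 0.0362, edgeR). In each of the 2 genes replicate 2 was the hHKDC1 OE liver nearest to null. Summed macrophage and Kupffer cell markers were at 175 to 328 CPM in null liver and 319 to 648 CPM in hHKDC1 OE liver, with 12 of 12 markers higher, 9 at an unadjusted p under 0.05 and 0 called, and none of the 12 at 0. Their part in these values was not tested.

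Of the genes upstream of hepcidin, Id1, a direct target of the BMP and SMAD arm, was at 7.53, 13.7 and 10.3 CPM in null liver and at 2.83, 6.12 and 2.19 CPM in hHKDC1 OE liver. All hHKDC1 OE values lay below null, with a log2 fold change of -1.50 ± 0.39 (adjusted p = 0.486, edgeR). The BMP and SMAD list had 16 of 23 tested genes below 0 with TMM and 13 of 23 with library size alone, and 2 genes were at an unadjusted p under 0.05, near the 6.94% of all genes. In the interleukin 6 and STAT3 list 8 of 10 tested genes were above 0 and 2 were at an unadjusted p under 0.05, beside the same share of all genes. Its smallest p was that of the receptor Il6ra, which was at 99.0, 112 and 110 CPM in null and at 77.0, 75.8 and 59.7 CPM in hHKDC1 OE, a log2 fold change of -0.59 ± 0.15 (adjusted p = 0.458, edgeR).

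In the remaining lists the gene with the smallest p also failed the adjusted test. In the NRF2 and BACH1 list it was Osgin1, at 36.6 to 37.9 CPM in null and at 92.4, 28.9 and 115 CPM in hHKDC1 OE (log2 fold change 1.07 ± 0.40, adjusted p = 0.621, edgeR). Ncoa4, the receptor that delivers ferritin to lysosomes, had -0.38, the iron-sulfur assembly gene Isca2 -0.37, and Nr1i2, the xenobiotic receptor that induces Alas1, -0.36, with adjusted p of 0.741, 0.716 and 0.782 (edgeR). Heme synthesis had 9 of 13 genes below 0 and 4 at an unadjusted p under 0.05, beside 6.94% of all genes, which were Alas1, Cpox, Slc25a38 and Clpx. Cpox, the coproporphyrinogen oxidase, had a log2 fold change of -0.45 ± 0.19, Slc25a38, the mitochondrial glycine carrier, -0.37 ± 0.16, and Clpx, a chaperone that acts on ALA synthase, -0.40 ± 0.16, with adjusted p of 0.685, 0.707 and 0.646 (edgeR).

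**Figure D3:**
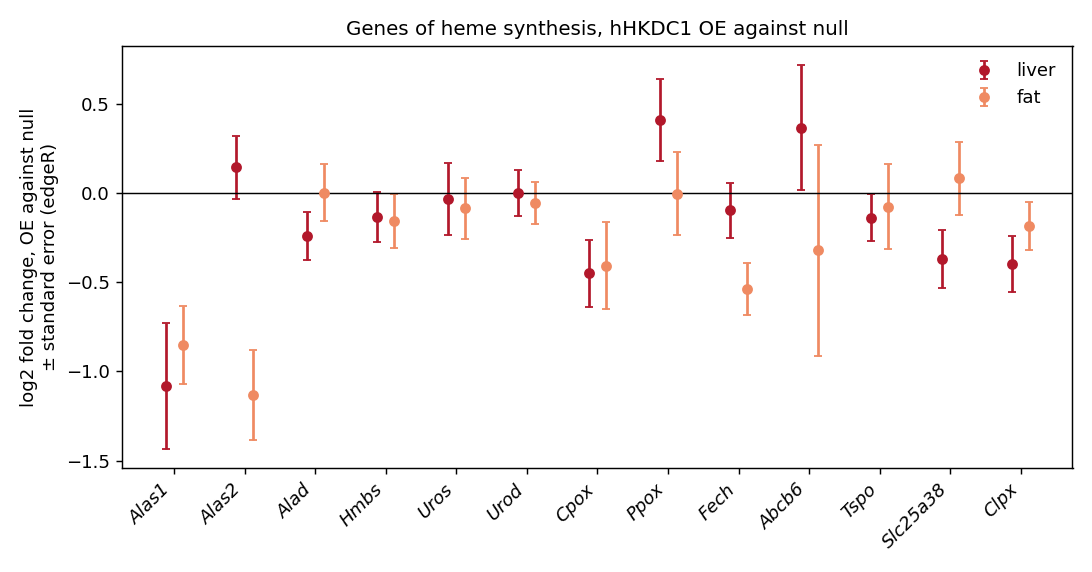
Log2 fold change of hHKDC1 OE against null for the 13 genes of heme synthesis in liver and in fat (edgeR, bars are 1 standard error). Alas1 is low in both tissues, Alas2 is at -1.13 in fat and 0.15 in liver, and none passed the adjusted test.

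The vector's promoter is not one of adipocytes, and hHKDC1 OE fat was compared with null fat to read the members in a distant tissue. Here too 0 of 10 genes passed edgeR, beside 0% of all 16380 genes. Hamp, Alas1 and Hmox1, 3 of 10, had an unadjusted p under 0.05, beside 17.7% of all genes, and DESeq2 called 1, Alas1, beside 7.95% of all genes, so that its count was near the background. Library size alone moved the median log2 difference of all genes from -0.05 to 0.11 in this comparison.

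Alas1 was lower in each hHKDC1 OE fat library. It was at 360, 328 and 402 CPM in null fat and at 163, 261 and 180 CPM in hHKDC1 OE fat. The groups did not overlap, and replicate 2 was the hHKDC1 OE library nearest to null. On the log2 scale the difference was -0.85 ± 0.22 (unadjusted p = 0.00602, adjusted p = 0.140, edgeR). Without hHKDC1 OE replicate 2 it was -1.09 (adjusted p = 0.00634, edgeR), and with DESeq2 it was -0.83 (adjusted p = 0.0183). The difference between the fat and liver values of Alas1 was 0.30 ± 0.48 (adjusted p = 0.842, edgeR interaction).

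Heme oxygenase 1 went the other way in fat. Hmox1 was at 32.2, 24.9 and 39.0 CPM in null and at 59.5, 42.1 and 44.8 CPM in hHKDC1 OE, so all hHKDC1 OE values were above null. This was a log2 fold change of 0.61 ± 0.22 (unadjusted p = 0.0274, adjusted p = 0.230, edgeR). Macrophages express Hmox1, and summed macrophage markers were at 295 to 664 CPM in null fat and 905 to 1560 CPM in hHKDC1 OE fat, with 10 of 12 higher, 6 at an unadjusted p under 0.05, 0 called, and none at 0 in every library. Summed B cell markers went from 2.48 to 4.49 CPM in null to between 63.8 and 1118 CPM in hHKDC1 OE, and summed T cell markers from 9.24 to 25.4 CPM to between 59.4 and 889 CPM. Summed adipocyte markers were at 24720 to 33936 CPM in null and 22816 to 31209 CPM in hHKDC1 OE, with 7 of 10 below 0, 0 at an unadjusted p under 0.05 and none at 0. Plin1, which coats lipid droplets, was the 1 marker of the 10 with groups apart. It was at 2743, 2811 and 2565 CPM in null and at 1804, 2492 and 1763 CPM in hHKDC1 OE, with replicate 2 nearest to null as for Alas1. Other markers went the other way, and 3 of the 10 were above 0. Mean levels of Fabp4, Cfd and Pparg were 9147, 4255 and 180 CPM in null and 10308, 4350 and 186 CPM in hHKDC1 OE. The part of these cells in the Hmox1 and Alas1 values was not tested.

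Fth1 was at 1648, 1598 and 1622 CPM in null fat and at 1518, 1490 and 1494 CPM in hHKDC1 OE fat. The groups did not overlap, yet the log2 fold change was only -0.11 ± 0.19 (adjusted p = 0.773, edgeR), and it was 0.04 with library size alone. Alas1, Fth1 and Hmox1 made 3 of 10 members with groups apart, beside 22.7% of all genes. Ftl1 ran from 383 to 598 CPM in null and from 442 to 647 CPM in hHKDC1 OE, with a log2 fold change of 0.18 ± 0.24. Slc40a1 ran from 11.3 to 13.3 CPM in null and from 8.65 to 25.0 CPM in hHKDC1 OE, with 0.44 ± 0.37 on the log2 scale, which ran from 0.063 to 0.74 when 1 library was left out. Tfrc ran from 21.7 to 37.6 CPM and from 18.2 to 28.6 CPM, with -0.17 ± 0.27. The adjusted p of these 3 genes ran from 0.544 to 0.754 (edgeR).

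Hepcidin mRNA was detected in every fat library. Null fat libraries held 306, 285 and 1215 counts of Hamp and hHKDC1 OE fat libraries 401, 120 and 126, or 18.6, 17.7 and 65.0 CPM and 19.0, 5.87 and 7.75 CPM. Null replicate 3 was far above the rest, hHKDC1 OE replicate 1 lay in the null range, and replicates 2 and 3 of hHKDC1 OE were the lowest. This gave a log2 fold change of -1.63 ± 0.65 (unadjusted p = 0.0405, adjusted p = 0.261, edgeR), and it was -0.77 without null replicate 3 (adjusted p = 0.476, edgeR) and -2.31 without hHKDC1 OE replicate 1 (adjusted p = 0.353, edgeR). The counts of Hamp2 were 47, 7 and 34 in the null libraries and 16, 8 and 0 in the hHKDC1 OE libraries, where 0 counts allow up to 3, and its log2 fold change was -2.10 ± 1.07 (adjusted p = 0.349, edgeR). When 1 library was left out, that of Hamp2 ran from -3.01 to -1.55.

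Hamp in fat moved with albumin, the defining hepatocyte mRNA. As a percent of the null liver mean on CPM by library size alone, Hamp was at 2.01, 1.88 and 7.61 in null fat and at 2.34, 0.727 and 0.938 in hHKDC1 OE fat. Alb on the same scale was at 2.34, 2.28 and 6.92 and at 1.75, 0.631 and 0.965. Hamp and Alb were both highest in null replicate 3 and lowest in hHKDC1 OE replicate 2. The sum of the 10 hepatocyte markers followed Hamp less closely, at 5.07, 6.37 and 10.6 and at 5.25, 3.47 and 5.30. Its value in hHKDC1 OE replicate 3 was above that in null replicate 1, unlike Hamp. Per 1000 counts of Alb, the null fat libraries had 10.6, 10.2 and 13.5 of Hamp, the hHKDC1 OE fat libraries had 16.5, 14.2 and 11.98, and the values lay between 6.04 and 20.8 in the 6 livers. Of the hepatocyte markers, 10 of 10 were below 0 in the fat comparison, 5 at an unadjusted p under 0.05 and 0 called, and their sum ran from 6649 to 12896 CPM in null and from 3973 to 6204 CPM in hHKDC1 OE, with no library at 0. Its part in the Hamp difference was not tested.

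**Figure D4:**
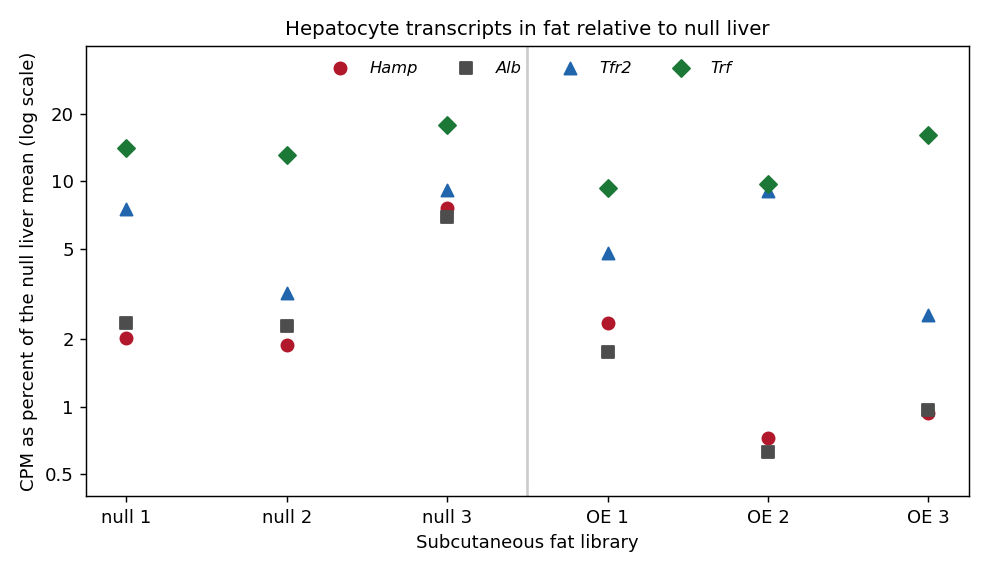
Hamp, Alb, Tfr2 and Trf in the 6 fat libraries as percent of their mean in null liver (CPM by library size alone, log y axis, 1 point per library). Hamp and Alb lie close together in every library, from 0.727 and 0.631 percent in hHKDC1 OE replicate 2 to 7.61 and 6.92 in null replicate 3, whereas Trf lies higher, between 9.36 and 17.7 percent.

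Transferrin and its second receptor did not share that pattern in every library. Trf was at 251, 239 and 292 CPM in null fat and at 146, 152 and 256 CPM in hHKDC1 OE fat. Replicates 1 and 2 of hHKDC1 OE were below null and replicate 3 within it, with a log2 fold change of -0.50 ± 0.25 (adjusted p = 0.344, edgeR) that lay between -0.81 without hHKDC1 OE replicate 3 and -0.35 without replicate 1. Tfr2 was at 36.1, 15.6 and 40.5 CPM in null and at 20.2, 38.0 and 10.9 CPM in hHKDC1 OE, where replicate 2 was high while its Hamp and Alb were the lowest of the 6. Its log2 fold change was -0.41 ± 0.51 (adjusted p = 0.680, edgeR), and it ran from -0.99 without hHKDC1 OE replicate 2 to -0.077 without replicate 3.

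In the pathway lists, 0 of 118 tested genes were called in fat by edgeR, 19 had an unadjusted p under 0.05, beside 17.7% of all genes, and DESeq2 called 9, beside 7.95% of all genes. Both counts were near the background, and the values of the genes below describe single genes and not the lists. The 9 were Alas2, Fech, Slc39a8, Lcn2, Smad7, Id2, Socs3, Slc7a11 and Foxo1. Heme synthesis had 11 of 13 genes below 0 with TMM and 6 of 13 with library size alone. Alas2, the erythroid form of the enzyme, was at 27.2, 16.9 and 24.0 CPM in null fat and at 8.29, 10.6 and 12.2 CPM in hHKDC1 OE fat. The groups did not overlap, and the log2 fold change was -1.13 ± 0.25 (adjusted p = 0.133, edgeR, and 0.00515 with DESeq2). Fech, which inserts iron into the porphyrin, was at 123, 134 and 112 CPM in null and at 88.3, 91.9 and 74.3 CPM in hHKDC1 OE, a log2 fold change of -0.54 ± 0.15 (adjusted p = 0.151, edgeR, and 0.0485 with DESeq2). Fech was the third gene of the list at an unadjusted p under 0.05, after Alas1 and Alas2, and was named after its value was seen.

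Red cell markers moved with Alas2 in fat. Their summed level was 566 to 836 CPM in null fat and 231 to 430 CPM in hHKDC1 OE fat, nearly all of it from the globin genes Hba-a1 and Hbb-bs. Of 9 markers, 4 had enough counts to be tested, all 4 were below 0, 3 were at an unadjusted p under 0.05 and 0 were called. The red cell membrane genes Slc4a1, Epb42 and Rhag were under 1 CPM in every library, with Epb42 and Rhag at 0 in several. In liver they did not move together, where hHKDC1 OE replicate 1 had the lowest red cell sum, 138 CPM, and the highest Alas2, 134 CPM. The part of red cells in the Alas2 value was not tested.

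Lcn2 was also higher in each hHKDC1 OE fat library. It was at 2.43, 1.43 and 1.93 CPM in null and at 13.03, 6.45 and 16.7 CPM in hHKDC1 OE, a log2 fold change of 2.64 ± 0.43 (adjusted p = 0.133, edgeR, and 1.08e-06 with DESeq2). Slc7a11, the cystine importer regulated by NRF2, was at 0.304, 0.0620 and 0.107 CPM in null and at 13.7, 1.22 and 21.0 CPM in hHKDC1 OE (adjusted p = 0.133, edgeR, 1.07e-07 with DESeq2 and 0.0317 with the replicate block). In both genes replicates 1 and 3 of hHKDC1 OE were highest, as were the B and T cell marker sums.

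Among the regulators, Socs3 was at 4.20, 6.08 and 3.74 CPM in null fat and at 23.1, 6.31 and 21.6 CPM in hHKDC1 OE fat, a log2 fold change of 1.86 ± 0.51 (adjusted p = 0.148, edgeR, and 0.00473 with DESeq2). Smad7, the inhibitory SMAD that BMP signalling induces, was at 9.61, 8.81 and 10.3 CPM and at 21.8, 13.7 and 18.1 CPM, a log2 fold change of 0.90 ± 0.23 (adjusted p = 0.140, edgeR, and 0.0109 with DESeq2). Foxo1, a forkhead factor that induces Alas1 in liver, was at 218, 193 and 185 CPM and at 107, 139 and 109 CPM, a log2 fold change of -0.75 ± 0.16 (adjusted p = 0.133, edgeR, and 0.00629 with DESeq2). Foxo1 and Alas1 were both below null in each hHKDC1 OE fat library. Ncoa4 had a log2 fold change of -0.48 ± 0.14 and Nfs1, the cysteine desulfurase of iron-sulfur assembly, -0.37 ± 0.14, with adjusted p of 0.174 and 0.238 (edgeR).

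The vector effects in fat and liver were tested against each other for all 10 genes, and 0 differed by edgeR, beside 0% of all 17070 genes. The count at an unadjusted p under 0.05 was 0 of 10, beside 12.7% of all genes, and DESeq2 called 0, beside 2.9% of all genes. The estimated difference, fat minus liver, was -0.99 ± 0.88 for Hamp, -0.77 ± 0.46 for Trf and 0.53 ± 0.34 for Ftl1 on the log2 scale, with adjusted p of 0.684, 0.513 and 0.542 (edgeR). When 1 library was left out these ran from -1.84 to -0.27, -1.23 to -0.37 and 0.18 to 0.61, with Hamp nearest to 0 without fat null replicate 3, Trf without liver hHKDC1 OE replicate 1 and Ftl1 without fat null replicate 2. For the other 7 it lay between -1.40 (Hamp2) and 0.50 (Slc40a1). When 1 library was left out, Hamp2 ran from -2.44 to -0.47, and Tfr2, at -0.48 with all libraries, from -1.25 to -0.27. Of 120 pathway genes, 0 were called, 11 had an unadjusted p under 0.05, beside 12.7% of all genes, and DESeq2 called 2, beside 2.9%. The smallest p was that of Id1, whose difference was 2.17 ± 0.51 (adjusted p = 0.140, edgeR, and 0.00853 with DESeq2). Id1 was at 16.6, 32.7 and 22.2 CPM in null fat and 39.9, 32.8 and 34.9 CPM in hHKDC1 OE fat, above null there and below it in liver. Alas2 had -1.20 ± 0.31 (adjusted p = 0.149, edgeR, and 0.0161 with DESeq2). In the other lists the genes with the smallest p were Lrp1, Slc39a8, Pcbp2, Slc25a37, Il6ra, Osgin1 and Nr1i2, with adjusted p between 0.247 and 0.505 (edgeR).

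Across tissues in null mice, the split of the pathway genes outside the 10 depended on the scaling. With TMM, 67 of 117 were lower in fat and 23 higher (edgeR), beside 30.5% of all 15259 genes lower and 33.8% higher. With library size alone 43 were lower and 45 higher, beside 2286 lower and 9012 higher of all genes. Heme synthesis had 11 of 13 lower and 1 higher with TMM, and 9 lower and 2 higher with library size alone. Its largest differences were Cpox at -3.87, Alas2 at -3.18, Abcb6, a porphyrin transporter, at -2.40 and Alad, the second enzyme, at -2.35 on the log2 scale. Heme breakdown and transport had 10 of 15 lower and 3 higher with TMM, and 7 lower and 5 higher with library size alone, led by Hpx at -5.58, the heme chaperone Pgrmc1 at -3.61, the heme and folate carrier Slc46a1 at -2.74 and the biliverdin reductase Blvrb at -2.28. The adjusted p of these 8 genes was at most 0.00180 (edgeR).

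The 2 multicopper oxidases that partner ferroportin were reciprocal. Cp, the plasma ceruloplasmin of hepatocytes, was at -3.31 ± 0.22 and Heph, the membrane-bound hephaestin, at 6.32 ± 0.21 (adjusted p = 1.08e-05 and 1.19e-06, edgeR). Hephl1, a homologue of hephaestin, had 4.59 to 10.03 CPM in null fat and no count in any liver library. Storage, export and cytosolic handling had 9 of 12 lower with TMM and 3 of 12 lower with library size alone, with 3 higher under both. The zinc and iron importer Slc39a14 was at -3.84 ± 0.23 and Lcn2 at -3.33 ± 0.66 in the uptake list, where 6 of 11 were lower under both scalings, with 2 higher with TMM and 4 with library size alone. Mitochondrial iron genes had 14 of 19 lower and 1 higher with TMM, and 6 lower and 6 higher with library size alone, among them Fdx1 at -2.40 and Fdxr at -1.71.

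Of the hepcidin regulators, Tmprss6, the hepatocyte protease that restrains BMP signalling to Hamp, was at -5.72 ± 0.52, Id2 at -3.71 ± 0.29, Smad9 at -3.54 ± 0.54 and Creb3l3, a hepatocyte stress factor that binds the Hamp promoter, at -5.39 ± 0.55. The BMP and SMAD list held 9 higher and 8 lower of 23 with TMM, near the shares over all genes, and 12 higher and 6 lower with library size alone. In the interleukin 6 list 2 of 9 were lower and 1 higher with TMM, and 2 lower and 6 higher with library size alone, with Il6ra at -1.72 ± 0.14 and Jak2 at 1.18 ± 0.17. NRF2 and BACH1 genes had 10 of 16 lower and 2 higher with TMM, and 7 lower and 6 higher with library size alone. The largest were Gsta2 at -5.23, Gclc at -3.24, Osgin1 at -3.01 and G6pdx, of the pentose phosphate path, at 4.80. Inducers of Alas1 that mark hepatocytes were far lower in fat, with Hnf4a at -5.49, Nr1i2 at -5.38 and Nr1i3 at -4.79, and Nr1d1 was higher at 1.66 (adjusted p = 0.00841, edgeR). Each gene named here kept its direction with library size alone, and the adjusted p of the rest was at most 0.00265 (edgeR).

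Genes whose profile was most like that of a member were sought by the root mean square difference of mean-centred log2 CPM over 6 libraries, which share the 2 vector groups and their depth. Over the livers, among 12237 genes, Hamp was most like Noct (0.13), Per1 (0.20) and Epha2 (0.21), and its copy Hamp2 stood at 0.40. The spread of Hamp itself on this scale was 0.77, and the median candidate differed by 0.81. Alas1 was most like Sema4d (0.21), Vcam1 (0.23) and Pctp (0.26), Tfrc like Tbc1d8 (0.08), Gbp4 (0.08) and Morc3 (0.09), and Hmox1 like Arhgef19 (0.10), Gm4240 (0.11) and Gfod2 (0.11). Over the 6 fat libraries, among 15069 genes, Alas1 was most like Fmo2 (0.09), 9330162012Rik (0.09) and Zfhx3 (0.11), Tfrc like Osbpl10 (0.05), Mapkapk2 (0.12) and Nsdhl (0.12), and Hmox1 like Cubn (0.06), Manf (0.07) and Cerk (0.09).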

How the data were processed

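RNA from liver and subcutaneous fat was sequenced from non-stranded libraries (12 in all, 3 per tissue and vector), and per the labels and methods the authors used STAR (2.5, with a later release also named in the methods) for alignment and HTSeq 0.6.1 for gene-level counting. The deposited counts are whole numbers without normalization, and the authors' FPKM values are scaled by gene length and depth. The methods name a human reference, but the identifiers and positions are those of mouse GRCm38. Columns with the authors' own fold changes and p-values were not used.

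Each tissue was fitted alone with edgeR 4.0.16 (glmQLFit, glmQLFTest, TMM, filterByExpr) in R 4.3.3, fat was compared with liver in null mice, and the difference between vector effects was an interaction over 12 libraries. Genes were called at a Benjamini-Hochberg adjusted p under 0.05 over all genes tested. CPM are on TMM library sizes within a tissue. The fits were first tested on simulated data. The alternatives were DESeq2 1.42.0, scaling by the upper quartile or by library size alone, 2 other filters (none, or 10 counts in each library), a robust spread, a replicate block, limma 3.58.1 on log2(FPKM + 1) and log2(FPKM + 0.1) for genes of mean FPKM at least 0.1, the 12 libraries in 1 fit, and each library left out in turn.

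The members, the gene lists and the tests were chosen with earlier results of these data known. Named were the 10 members, from each pathway list the called genes with the 4 largest log2 differences or, with none called, the gene of the smallest p, and the 3 genes most like Hamp (in liver) and like Tfrc, Alas1 and Hmox1 (in each tissue), among genes of mean CPM at least 1, with 0.5 CPM added before the log. Genes named outside this rule (Nr1d1, Socs3 and Hp in liver, Cpox, Slc25a38 and Clpx in liver, Fech and Plin1 in fat, the DESeq2 calls) were chosen after their values were seen. Replicates of a group differed by far more than counting error. Standard errors are those of the fits and hold the spread between libraries, whereas the floor of 3 counts behind a 0 covers counting error only.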

Additional observations from a re-analysis of the deposited data

How the results depend on the processing

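The count of called genes changed widely between settings. In liver edgeR called 0 of all genes, whereas DESeq2 called 90, library size alone 2, the fit without a filter 327, a robust spread 1, and limma 3 with a pseudocount of 1 FPKM and 7 with 0.1 FPKM. In fat the count was 0, and it was 1303 with DESeq2, 803 with no filter, 1 with limma at either pseudocount and 876 with the 12 libraries in 1 fit. For the difference between the tissues it was 0, and it was 495 with DESeq2, 479 with no filter and 6 with limma on log2(FPKM + 0.1). Leaving out 1 library gave 0 to 146 calls in liver, 0 to 3251 in fat and 0 to 1211 for the difference, each highest without hHKDC1 OE replicate 2 of liver, fat and fat respectively, and without fat null replicate 3 fat had 2. The cause was not tested. Members called numbered 1 in liver with no filter (Alas1) and 1 in fat with DESeq2 (Alas1), and 0 to 1 in fat when 1 library was left out. Of the pathway genes, DESeq2 called 4 in liver, 9 in fat and 2 for the difference, no filter 8, 5 and 2, and the 12 libraries in 1 fit 4 in fat, and leaving out 1 library gave 0 to 5, 0 to 17 and 0 to 10.

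Same-numbered libraries did not deviate together in every pair (r from 0.087 to 0.20 between null and hHKDC1 OE liver, -0.13 to 0.046 in fat, 0.040 to 0.26 between null liver and null fat, and 0.018 to 0.062 between the tissues of hHKDC1 OE), so the numbers were not taken as pairs. Every library correlated best with its own number between the vectors in liver and between null liver and null fat. With the replicate block, liver had 17 called genes and 1 pathway gene (Lcn2), fat 168 and 1 (Slc7a11), and Slc40a1 in liver turned to -0.022.

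Reversals under the other settings were as follows. In liver, Fth1 was at -0.026 and Slc40a1 at -0.049 with limma on log2(FPKM + 1), at -0.027 and -0.054 on log2(FPKM + 0.1), and at -0.016 and -0.0031 in the fit of 12 libraries. With library size alone Fth1 was at 0.042 in fat, and for fat against liver Tfrc turned from -0.18 to 0.70, past the threshold, and Fth1 from a called -0.72 to 0.17. When 1 library was left out, the log2 fold changes of genes that turned ran from -0.23 to 0.22 for Slc40a1, -0.029 to 0.057 for Fth1 and -0.053 to 0.59 for Trf in liver, and from -0.35 to 0.057 for Tfrc and -0.015 to 0.32 for Ftl1 in fat. The differences between tissues that turned ran from -0.15 to 0.51 for Alas1, -0.00012 to 0.60 for Hmox1, -0.040 to 0.75 for Slc40a1 and -0.056 to 0.59 for Tfrc. For fat against liver, Hmox1, not called by edgeR as run, was called under 8 of its 16 alternatives (adjusted p from 0.00341 to 0.212), and the 7 called members other than Fth1 kept direction and call under every alternative in which they were tested, 15 for Hamp2, which the filter of 10 counts in every library removed. A count of 0, as for Hamp2 in hHKDC1 OE fat replicate 3, allows up to 3.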
